A study of Caenorhabditis elegans with 36 samples.

Results

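BAY2402234 and brequinar are small molecules that inhibit dihydroorotate dehydrogenase (DHODH), the mitochondrial enzyme that makes orotate on the way to uridine monophosphate. Both were given to Caenorhabditis elegans at the same nominal dose of 500 µM, and the 4 BAY2402234 libraries were set directly against the 4 brequinar libraries of the same batch, 8 of the 36 libraries of the series, chosen by compound, dose and batch. The worms were strain N2, exposed from the L1 larva to day 1 of adulthood at 20 °C on HT115 bacteria with the empty RNAi vector, about 3000 per sample. Every plate of every group also carried 10 µM 5-fluorouracil (5-FU), a pyrimidine analogue, so all levels here are those of worms on 5-FU. The 4 DMSO libraries of batch 1 (no inhibitor, otherwise the same) are given beside the results as the untreated level. They are in neither arm of the contrast between the compounds, but like all batch 1 libraries they enter the fit that sets the expression filter, the scaling and the spread. Fitted on the 8 libraries alone, 8524 of 13887 genes tested differed by the test described below, in place of 9598 of 15142. RNA came from whole worms, so a lower level of a tissue's genes cannot be told apart from fewer cells of that tissue, and the concentration reached inside the worms is not in the labels.

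In C. elegans as in other animals, pyr-1 carries out the first steps of pyrimidine synthesis, dhod-1 encodes DHODH, which passes electrons to ubiquinone in the inner mitochondrial membrane, and umps-1 finishes uridine monophosphate. Uridine nucleotides feed RNA, DNA, the UDP-sugars used for glycosylation and cuticle, and phospholipid synthesis. Worms can also salvage nucleosides from their bacterial food, and they answer foreign molecules with cytochrome P450s, conjugating enzymes and ABC transporters.

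Each of the 8 libraries held 19829189 to 20455600 counts, so depth did not separate the groups. More genes were detected with BAY2402234 (20079 to 21164) than with brequinar (18367 to 19470), and the 10 most abundant genes took 11.2 to 13.8% of counts with BAY2402234 against 8.69 to 9.43% with brequinar. The first principal component, 66.6% of the variance over the 8 libraries, separated the compounds. The second, 13%, set replicate 1 of each compound (39 and 40.4) above its other 3 libraries. The median SD between replicates was 0.222 (log2) for BAY2402234, 0.181 for brequinar and 0.176 for DMSO.

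At the same dose the compounds gave far-reaching differences in expression. Of 15142 genes tested with edgeR's quasi-likelihood test (Benjamini-Hochberg adjusted p below 0.05), 9598 differed, or 63.4%. Of these, 5021 (33.2%) were higher with BAY2402234 and 4577 (30.2%) were lower. The counts of gene list members below are to be read beside these 2 shares of all genes tested. They are also to be read beside the shares by expression level given below, since calls in each direction depended on level. The sizes were lopsided: 3064 genes (20.2%) were at least 2-fold higher with BAY2402234, and 268 (1.77%) at least 2-fold lower. All 4 libraries of one compound lay above all 4 of the other for 3875 genes (25.6%) in the direction of BAY2402234 and for 4373 (28.9%) in the direction of brequinar. The median gene was 0.16 higher with BAY2402234 on the log2 scale, and this zero point matters to the split. By total counts in place of TMM, the median was 0.31 and 65.2% of called genes were higher with BAY2402234, against 52.3% as reported. With the median set to 0, it was 42.2%.

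Against DMSO, 3519 genes were higher with BAY2402234 (23.2%) and 3569 lower (23.6%). With brequinar 762 were higher (5.03%) and 1608 lower (10.6%). Both comparisons use the same DMSO libraries, so here and below their values are given side by side and the difference between them was not tested beyond the direct contrast of the compounds.

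Abundant and weakly expressed genes differed in opposite directions. Levels are given as TMM-scaled counts per 1000000 counts of a library (CPM). Of 2168 genes with a mean of 100 to 1000 CPM, 74.3% were lower with BAY2402234 and 9.13% higher. Of 101 genes over 1000 CPM, 64.4% were lower and 9.9% higher. Of 4843 genes between 1 and 10 CPM, 50.8% were higher and 7.47% lower. The gene lists below were not matched for level. For lists of abundant or weakly expressed genes, these shares are a nearer background than those of all genes. The chromosomes were also unlike. Of 2117 genes on the X chromosome, 42.7% were higher with BAY2402234 and 9.78% lower, while the 12934 autosomal genes divided into 31.6% higher and 33.7% lower. Chromosomes I and III, with 41.2% and 40.6% of genes lower, had the most lower calls, and chromosome V had 39.3% higher.

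Transcripts of the pyrimidine pathway differed by less than 2-fold. The gene of the common target, dhod-1 (chromosome I, 6736680 to 6741176, WBcel235), gave 56.4, 63.3, 68.2 and 58.5 CPM with BAY2402234 and 87.7, 92.9, 93.4 and 87.5 CPM with brequinar, beside 83.5 ± 4.65 CPM (SD, n = 4) in DMSO. The BAY2402234 libraries lay below all brequinar libraries, with a log2 fold change of -0.55 (SE 0.08, adjusted p = 5.53e-06). Relative to DMSO the change was -0.44 with BAY2402234 (adjusted p = 0.000249) and 0.11 with brequinar (adjusted p = 0.341). These are transcript levels and say nothing of the enzyme's activity.

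On either side of DHODH the genes went in opposite directions. pyr-1, the multifunctional enzyme that starts the pathway, was at 162, 169, 163 and 149.9 CPM with BAY2402234 and 125, 131, 131 and 122 CPM with brequinar, a log2 fold change of 0.34 (SE 0.06, adjusted p = 3.22e-05). umps-1, which makes uridine monophosphate from orotate, was at 94.9, 113, 120.2 and 96 CPM against 139, 142, 139.9 and 131 CPM, -0.38 (SE 0.1, adjusted p = 0.00218). For both genes the groups did not overlap. The umps-1 call was lost when both replicate 1 libraries were left out (log2 -0.25, adjusted p = 0.0674).

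Of 17 genes of pyrimidine and deoxynucleotide synthesis, salvage and breakdown, 10 were lower with BAY2402234 and 4 higher, with a median of -0.38, and none differed by 2-fold. Without both replicate 1 libraries, 6 were lower. The lower ones included the cytidine deaminase cdd-2 (22.2 ± 3.01 CPM against 43 ± 3.76 CPM, log2 -0.95), the nucleoside diphosphate kinase ndk-1 (-0.79), dihydrofolate reductase dhfr-1 (-0.59), CTP synthase ctps-1 (-0.54), and both ribonucleotide reductase genes, rnr-1 (-0.38) and rnr-2 (-0.42). Besides pyr-1, the higher ones were 3 genes of the route that degrades uracil and thymine: dpyd-1 (79 ± 18.6 CPM against 48.9 ± 5.46 CPM, log2 0.69), dhp-2 (0.46) and upb-1 (0.57). The enzyme of the first step, dihydropyrimidine dehydrogenase, is also known in mammals to degrade 5-FU. Uridine phosphorylase upp-1, which in worms and bacteria can handle 5-FU, was slightly lower, -0.3 (SE 0.11, adjusted p = 0.0173), a call lost without BAY2402234 replicate 1 (-0.21, adjusted p = 0.0975) and by total counts (-0.14, adjusted p = 0.181).

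Thymidylate synthase, the known target of the active form of 5-FU, is encoded by tyms-1. It gave 70.7, 88.1, 90.5 and 89.8 CPM with BAY2402234 and 83.1, 97.5, 101 and 107 CPM with brequinar, overlapping ranges, against 66.8 ± 3.87 CPM in DMSO. The difference between the compounds was not called: -0.2 (SE 0.09, adjusted p = 0.0558) with a 95% interval of -0.38 to -0.01. It was -0.04 (adjusted p = 0.708) without BAY2402234 replicate 1, and it was called in 6 alternatives, such as the DESeq2 test (-0.21, adjusted p = 0.043), with adjusted p from 0.00141 to 0.0472 there. Both groups were above DMSO, by 0.34 with BAY2402234 (adjusted p = 0.00383) and 0.54 with brequinar (adjusted p = 0.000289).

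Of 7 genes of equilibrative nucleoside transporters, which move nucleosides across membranes, 4 were lower with BAY2402234 and 1 higher. The higher one, ent-3, had the largest difference, at 1.46 ± 1.55 CPM against 0.445 ± 0.174 CPM (log2 1.7, adjusted p = 0.0245), and was not called without BAY2402234 replicate 1. The lower ones included ent-5 (log2 -0.94), ent-6 (-0.42) and ent-1 (-0.28). Of 9 genes of UDP-sugar and hexosamine synthesis, 6 were lower and 2 higher. The lower ones included gfat-1, the entry step to hexosamines (349 ± 34.1 CPM against 617 ± 30 CPM, log2 -0.82), gale-1, UDP-galactose 4-epimerase (-0.67), and sqv-4, UDP-glucose dehydrogenase (-0.52). By total counts 2 of the transporters were lower, and ent-1 was not called (-0.13, adjusted p = 0.111).

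folt-2, predicted to transport folate, showed a much larger difference. It gave 49.9, 7.21, 11.1 and 36.5 CPM with BAY2402234 and 276, 229.7, 256 and 245 CPM with brequinar, log2 -3.27 (SE 0.61, adjusted p = 0.000152), and 234 ± 16 CPM in DMSO. Every BAY2402234 library was below every brequinar library, and replicates 2 and 3 lay several times lower than 1 and 4. Of 16 folate and one-carbon genes, 9 were lower and 3 higher, and 5 were lower without BAY2402234 replicate 1. The serine hydroxymethyltransferase mel-32 was lower (-0.82). pmt-1, the methyltransferase that starts phosphocholine synthesis in worms, went the other way: 585, 626, 546 and 571 CPM against 158, 146, 169 and 181 CPM, log2 1.83 (SE 0.15, adjusted p = 6.78e-09).

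The largest differences in the direction of BAY2402234 included enzymes of fat and alcohol metabolism and genes of immune families. adh-1, an alcohol dehydrogenase (chromosome V, 11888248 to 11889650), was at 915, 1172, 832 and 1024 CPM with BAY2402234 and 25.6, 34.1, 28.5 and 22.5 CPM with brequinar, with 101 ± 34.9 CPM in DMSO. The 2 groups lay on opposite sides of DMSO, and differed 35.6-fold, log2 5.15 (SE 0.51, adjusted p = 9.86e-08). acs-2, the acyl-CoA synthetase that readies fatty acids for mitochondrial oxidation and is known to be induced by fasting (chromosome V, 15567394 to 15569897), was at 531, 1011, 584 and 565 CPM against 25, 33.3, 18.7 and 12.9 CPM, with 82.7 ± 20.4 CPM in DMSO. This was 29.9-fold, log2 4.9 (SE 0.35, adjusted p = 5.94e-09). ech-9, of the enoyl-CoA hydratase family, was at 10.7, 10.4, 11.2 and 7.03 CPM against 0.31, 0.103, 0.246 and 0.257 CPM, log2 5.39. For these 3 genes the changes from DMSO were 3.29, 3.03 and 1.56 with BAY2402234 and -1.86, -1.88 and -3.82 with brequinar.

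Of the other large rises, dod-22, a CUB-like gene repressed by the insulin-pathway factor DAF-16, was at 48.7, 29.1, 23.3 and 40.9 CPM against 1.14, 0.411, 0.937 and 0.617 CPM, with 6.55 ± 1.89 CPM in DMSO (log2 5.5). pals-31 was at 9.11, 8.29, 7.11 and 7.39 CPM against 0.155, 0.154, 0.345 and 0.309 CPM, with 0.497 ± 0.188 CPM in DMSO (log2 5.01). ugt-18, a glucuronosyltransferase, was at 17, 13.9, 14.1 and 13.1 CPM against 0.207, 0.462, 0.887 and 0.772 CPM (log2 4.62), and the lectin clec-82 at 8.79, 5.06, 4.68 and 6.19 CPM against 0.258, 0.154, 0.246 and 0.257 CPM (log2 4.72). The chitinase-like gene chil-23 differed by 4.52. Among genes known by sequence name only, C50F7.5 was at 90.7, 41.3, 34.6 and 37 CPM against 0.413, 0.565, 0.838 and 0.412 CPM, log2 6.49 (SE 0.62, adjusted p = 6.59e-08). In each of these genes the lowest BAY2402234 library exceeded the highest brequinar library.

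**Figure D1:**
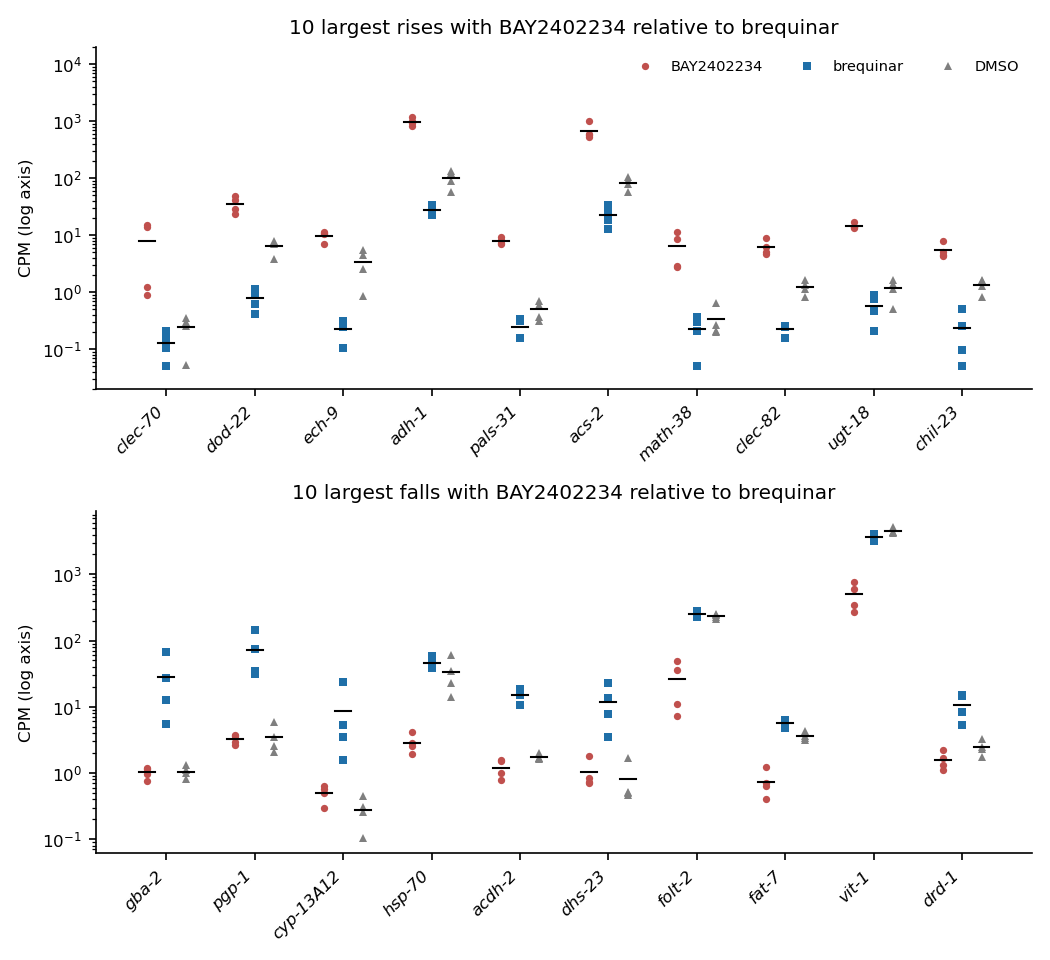
Levels in CPM (log axis) of the 10 largest rises and the 10 largest falls with BAY2402234 relative to brequinar, 1 point per library, with the mean as a bar. For adh-1 and acs-2 the DMSO libraries lie between the compounds. For gba-2, pgp-1 and acdh-2 the BAY2402234 and DMSO libraries overlap or nearly so and brequinar stands above, and for folt-2 and vit-1 brequinar lies close to DMSO and BAY2402234 below.

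Some genes that break down fat were among the higher ones. Others were not: the acyl-CoA dehydrogenases, which begin fatty acid oxidation, gave 5 higher and 6 lower of 13, counted after the values were seen. Of 5 lysosomal lipases tested, a family known in worms to be induced by fasting, 3 were higher with BAY2402234 and none lower. lipl-1 was at 66.1, 57.1, 52.4 and 66.4 CPM against 3.05, 4.72, 3.7 and 4.53 CPM, log2 3.92 (SE 0.36, adjusted p = 2.98e-08), lipl-2 differed by 2.29 and lipl-3 by 2.85. The glyoxylate cycle enzyme icl-1, which lets worms turn fat into sugar, was at 1668, 2216, 1925 and 2224 CPM against 347, 389, 294 and 261 CPM, log2 2.64 (SE 0.23, adjusted p = 1.77e-08), with 631 ± 161 CPM in DMSO. The phosphoenolpyruvate carboxykinase genes pck-1 and pck-2, of gluconeogenesis, were higher, pck-1 by 1.28 and pck-2 by 0.87.

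Over all 23 glycolysis and gluconeogenesis genes the calls were even, 8 higher and 8 lower (34.8% each), near the shares of all genes. The median was -0.09, and 0.06 by total counts. The glyceraldehyde-3-phosphate dehydrogenase genes divided in pairs: gpd-4 (-1.28) and gpd-1 (-0.94) were lower, gpd-2 (0.49) and gpd-3 (0.7) higher. The members of each pair are close copies, so reads could be shared within a pair.

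Fatty acid synthesis genes divided as well: 5 of 19 desaturase, elongase and regulator genes were higher with BAY2402234 and 6 lower, beside 33.2% and 30.2% of all genes. sbp-1, the worm SREBP that drives lipid synthesis, was at 73, 77.6, 78.6 and 64.1 CPM against 29, 26.4, 30.3 and 28.9 CPM, log2 1.35 (SE 0.09, adjusted p = 9.76e-10). The polyunsaturated fatty acid genes fat-2 (0.84), fat-3 (1.87) and fat-4 (0.65) were higher, and fat-1 (0.19) was not called. The delta-9 desaturase fat-7, by contrast, was at 0.41, 0.627, 1.22 and 0.712 CPM with BAY2402234 against 5.32, 4.83, 5.96 and 6.38 CPM with brequinar, log2 -2.92 (SE 0.29, adjusted p = 4.66e-08), while its sister gene fat-6 was not called (0.1, 95% interval -0.33 to 0.53). The elongases elo-5 (-1.42) and elo-6 (-1.57), which make branched-chain fatty acids, and elo-2 (-1.01) were lower. Of 56 genes of fatty acid activation and oxidation, 24 were higher (42.9%) and 17 lower (30.4%), the last near the share of all genes. Without brequinar replicate 2 the higher count was 16, and without both replicate 1 libraries it was 19. The acyl-CoA dehydrogenase family gene acdh-2 was among the lower ones, at 0.774, 0.986, 1.56 and 1.51 CPM against 18.8, 14.9, 15.6 and 10.8 CPM, log2 -3.64 (SE 0.3, adjusted p = 7.12e-09), with 1.73 ± 0.163 CPM in DMSO. The change from DMSO was -0.52 with BAY2402234 (adjusted p = 0.175) and 3.12 with brequinar (adjusted p = 2.47e-06).

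Targets of DAF-16, the forkhead factor of the insulin pathway, were higher with BAY2402234 in 11 of 13 tested and lower in none, with a median of 1.89. The aquaglyceroporin aqp-1 had the smallest p-value of the genes over 50 CPM: 168, 186, 118 and 218 CPM against 10.7, 12.2, 9.96 and 9.16 CPM, 16.4-fold, log2 4.04 (SE 0.24, adjusted p = 5.51e-10), with 44.9 ± 7.03 CPM in DMSO. The lysozyme lys-7 was at 426, 333, 248 and 424 CPM against 34.4, 28.3, 45.3 and 65 CPM (log2 3.05), the metallothionein mtl-1 differed by 3.68, the ferritin ftn-1 by 2.78 and dod-3 by 2.29. Not called were the small heat shock gene sip-1 (-0.14) and the desaturase fat-5 (-0.46). Targets of the hypoxia factor and sulfide genes gave 6 higher and 3 lower of 12, with 0 lower by total counts. hif-1 itself was at 168 ± 8.71 CPM with BAY2402234 (log2 0.69), and egl-9, the hydroxylase that marks HIF-1 for degradation, differed by 0.77.

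Families of immune and pathogen-response genes were mostly higher with BAY2402234. Of 22 pals genes, a family known for its response to intracellular pathogens, 19 were higher and none lower (median 1.89). Of 112 C-type lectins, 64 were higher and 10 lower (median 0.96), and of 12 lysozymes 8 were higher and 2 lower (median 1.4). clec-66 was at 256, 286, 237 and 142 CPM against 16.4, 11.6, 11.7 and 15.6 CPM, log2 4.06 (SE 0.27, adjusted p = 1.68e-09), with 32.8 ± 7.52 CPM in DMSO. clec-83 (log2 2.97) and clec-65 (2.54) followed the same order, as did lys-8 (2.1) and lys-1 (1.93). sysm-1, a known target of the p38 pathway of intestinal immunity, was at 141, 90.5, 80.9 and 59.9 CPM against 16.1, 11.2, 10.3 and 15 CPM, log2 2.83 (SE 0.24, adjusted p = 1.05e-08).

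Not every immune gene followed. Of 43 innate immune effectors, 24 were higher and 8 lower. The infection response gene irg-5 was lower with BAY2402234, 102, 86.2, 86.4 and 184 CPM against 465, 458, 438 and 487 CPM, log2 -2.01 (SE 0.24, adjusted p = 7.23e-07). Relative to DMSO (73.8 ± 6.21 CPM) it was higher with both, by 0.64 with BAY2402234 and 2.65 with brequinar. Proteases of the gut lumen and lysosome were largely higher: 16 of 22 aspartyl and cysteine proteases, with 1 lower and a median of 1.45. asp-1 was at 4504, 3323, 3738 and 4927 CPM against 1207, 941, 1199 and 1214 CPM (log2 1.85), asp-6 differed by 2.25 and cpz-2 by 1.48. The legumain gene lgmn-1, a cysteine endopeptidase, was at 410.2, 425, 394 and 380.1 CPM against 61.1, 60.1, 58.7 and 59.4 CPM, log2 2.75 (SE 0.19, adjusted p = 1.68e-09). F-box A genes (70 of 116 higher, 8 lower) and nuclear hormone receptors (117 of 185 higher, 9 lower, median 0.75) were also largely higher. Of the receptors nhr-112 differed by 3.77, nhr-120 by 1.83 and nhr-88 by 1.41.

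Detoxification genes gave calls in both directions, also within some subfamilies such as pgp, while the called cyp-33 genes were all higher with BAY2402234. P-glycoprotein pgp-1, an ABC efflux pump (chromosome IV, 12591704 to 12599169), was at 2.64, 3.58, 3.7 and 2.98 CPM with BAY2402234 and 34.9, 31.4, 144 and 75 CPM with brequinar, with 3.5 ± 1.68 CPM in DMSO. The lowest brequinar library was several times above the highest BAY2402234 library, and the fitted difference was 22.1-fold, log2 -4.47 (SE 0.41, adjusted p = 4.27e-08). From DMSO the change was -0.12 with BAY2402234 (adjusted p = 0.827) and 4.35 with brequinar (adjusted p = 2.9e-06). Of 14 pgp genes tested, 8 were higher with BAY2402234, led by pgp-5 (179 ± 71.4 CPM against 25.8 ± 3.57 CPM, log2 2.8) and pgp-9 (2.01), and pgp-3 (-0.9) was the other one lower. These subfamily counts, and those of the cytochrome P450s below, were drawn up after the values were seen.

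gba-2, a glucosylceramidase gene, gave the largest fall of all genes named: 1.18, 0.762, 0.974 and 1.16 CPM with BAY2402234 against a range of 5.53 to 67.2 CPM with brequinar, log2 -4.78 (SE 0.66, adjusted p = 5.11e-06), with 1.05 ± 0.212 CPM in DMSO. dhs-23, of the short-chain dehydrogenases, was at 0.728, 0.717, 0.828 and 1.82 CPM against 3.46, 7.85, 23 and 13.5 CPM (log2 -3.53), and R09E12.9, a gene with no other name, at 1, 0.851, 0.536 and 1.38 CPM against 3.67, 8.21, 23.1 and 13.9 CPM (log2 -3.68). drd-1 was at 1.09, 1.34, 1.7 and 2.23 CPM against 8.21, 5.34, 14.3 and 15.1 CPM (log2 -2.75). In these 4 genes (gba-2, dhs-23, R09E12.9 and drd-1) the BAY2402234 group did not differ from DMSO by the test (adjusted p from 0.103 to 0.965), while brequinar lay above it by 4.74, 3.88, 4.27 and 2.13. F18E3.12, also known by sequence name only, lay below DMSO with BAY2402234: 0.137, 0.403, 0.39 and 0.0445 CPM with BAY2402234, 8.21, 5.8, 6.06 and 4.99 CPM with brequinar and 3.63 ± 1.41 CPM in DMSO, with log2 -4.66 between the compounds and changes from DMSO of -3.88 with BAY2402234 and 0.79 with brequinar (adjusted p = 0.163).

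The cytochrome P450s, which oxidise foreign compounds and fats, gave calls in both directions. Over 65 genes 28 were higher with BAY2402234 (43.1%) and 16 lower (24.6%), beside 33.2% and 30.2% of all genes. cyp-13A12 was at 0.637, 0.493, 0.292 and 0.579 CPM against 5.27, 1.59, 23.7 and 3.5 CPM, log2 -4.07 (SE 0.6, adjusted p = 8.41e-06), and cyp-13A4 (-2.51), cyp-13A5 (-1.91) and cyp-13A6 (-2.34) of the same subfamily were lower too. Of the other 4 cyp-13A genes tested, cyp-13A2 was higher (0.83, adjusted p = 0.0371) and 3 were not called. Also lower were cyp-35C1 (12.7 ± 1.2 CPM against 75.2 ± 30 CPM, log2 -2.56), cyp-35A5 (-2.25) and cyp-25A2 (-1.69). Higher with BAY2402234 were 13 of 16 cyp-33 genes and none lower, with cyp-33C12 at 2, 3.18, 2.58 and 2.09 CPM against 0.0516, 0.0513, 0.0493 and 0.0515 CPM (log2 5.43). The brequinar libraries held 4 counts of it in all, so this fold change is imprecise. cyp-32B1 (2.71), cyp-35B1 (2.17) and cyp-35A2 (1.13) were higher as well. Within cyp-35A the nearest relatives went apart, with cyp-35A2, cyp-35A3 (1.21) and cyp-35A4 (1.78) higher and cyp-35A1 (-2.2) and cyp-35A5 lower.

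Glucuronosyltransferases (21 higher and 16 lower of 62) and glutathione S-transferases (10 and 8 of 39) had shares of calls near those of all genes. The glutathione S-transferase count fell to 6 higher without brequinar replicate 2. gst-1 was at 114 ± 11.5 CPM against 264 ± 12.8 CPM, log2 -1.21 (SE 0.08, adjusted p = 1.02e-09). gst-4, a reporter gene of the oxidative stress factor SKN-1, was lower with BAY2402234 than with brequinar, log2 -0.7 (SE 0.22, adjusted p = 0.00994), and the change from DMSO was -1.31 with BAY2402234 and -0.61 with brequinar. The difference between the compounds was not called without both replicate 1 libraries (-0.55, adjusted p = 0.0925). Of 21 SKN-1 and antioxidant genes, 12 were lower with BAY2402234 and 4 higher, the last including the catalases ctl-1 (1.05) and ctl-2 (0.99).

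Within the brequinar group, pgp-1, gba-2, dhs-23, R09E12.9 and cyp-13A12 were each highest in replicate 3. gba-2, dhs-23 and R09E12.9 had the same order of libraries, with 3 above 4 above 2 above 1, and the lowest and highest lay several-fold apart. drd-1 was high in replicates 3 and 4. Within the BAY2402234 group, clec-70 (13.8, 1.21, 0.877 and 15.1 CPM), math-38 (8.6, 2.73, 2.87 and 11.5 CPM) and folt-2 (values above) were highest in replicates 1 and 4 and low in 2 and 3, although folt-2 lies below DMSO and the other genes above. T22F3.11, at 34, 26.1, 9.64 and 43 CPM, was lowest in replicate 3. These genes were put side by side after their values were seen, and the fold changes of single genes above carry this spread.

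**Figure D2:**
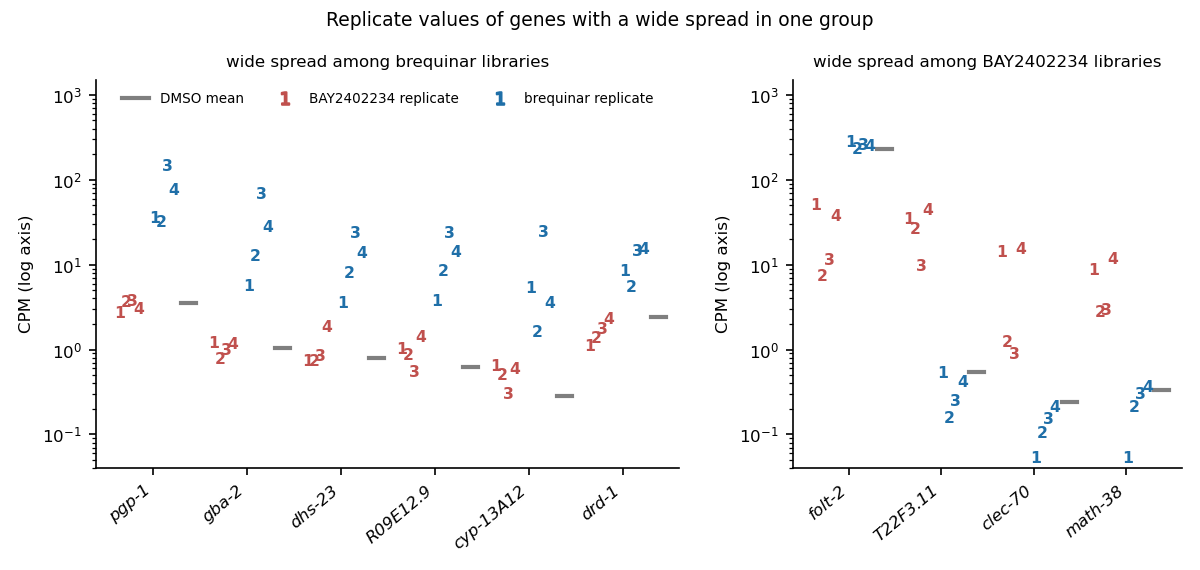
CPM (log axis) of 10 genes, each digit standing for the replicate of that number, red for BAY2402234 and blue for brequinar, with the DMSO mean as a grey bar. At left, brequinar replicate 3 is the highest for 5 of 6 genes, and at right BAY2402234 replicates 1 and 4 are the highest for each of the 4 genes.

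Cytosolic chaperones were lower with BAY2402234 in 17 of 19 genes tested, and 15 of these were lower by at least 2-fold, a size reached in that direction by 1.77% of all genes. The median was -2.20, the lowest of the 48 gene lists. hsp-70, an inducible heat shock gene (chromosome I, 9320325 to 9322519), was at 1.91, 2.87, 2.58 and 4.14 CPM with BAY2402234 and 58, 40.7, 37.9 and 44.9 CPM with brequinar, log2 -3.97 (SE 0.46, adjusted p = 6.38e-07), with 33.2 ± 20.4 CPM in DMSO. The small heat shock gene hsp-16.2 was at 2.14, 3.41, 4.68 and 5.79 CPM against 32.4, 25.5, 21.7 and 25.7 CPM, log2 -2.72 (SE 0.45, adjusted p = 4.08e-05). Constitutive chaperones were lower too: hsp-1 was at 1567, 1681, 2016 and 1449 CPM against 3984, 4230, 3569 and 3909 CPM (log2 -1.23), hsp-90 at 2514 ± 319 CPM against 4498 ± 218 CPM (-0.84), and the co-chaperone dnj-13 differed by -1.15. The 2 higher members were hsp-12.3 (0.9) and hsp-12.6 (0.63). Brequinar differed from DMSO in 2 of the 19 (both higher), and BAY2402234 in 18, with 17 lower. The hsp-16 and F44E5 genes include near-identical copies, whose counts cannot be separated with certainty.

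**Figure D3:**
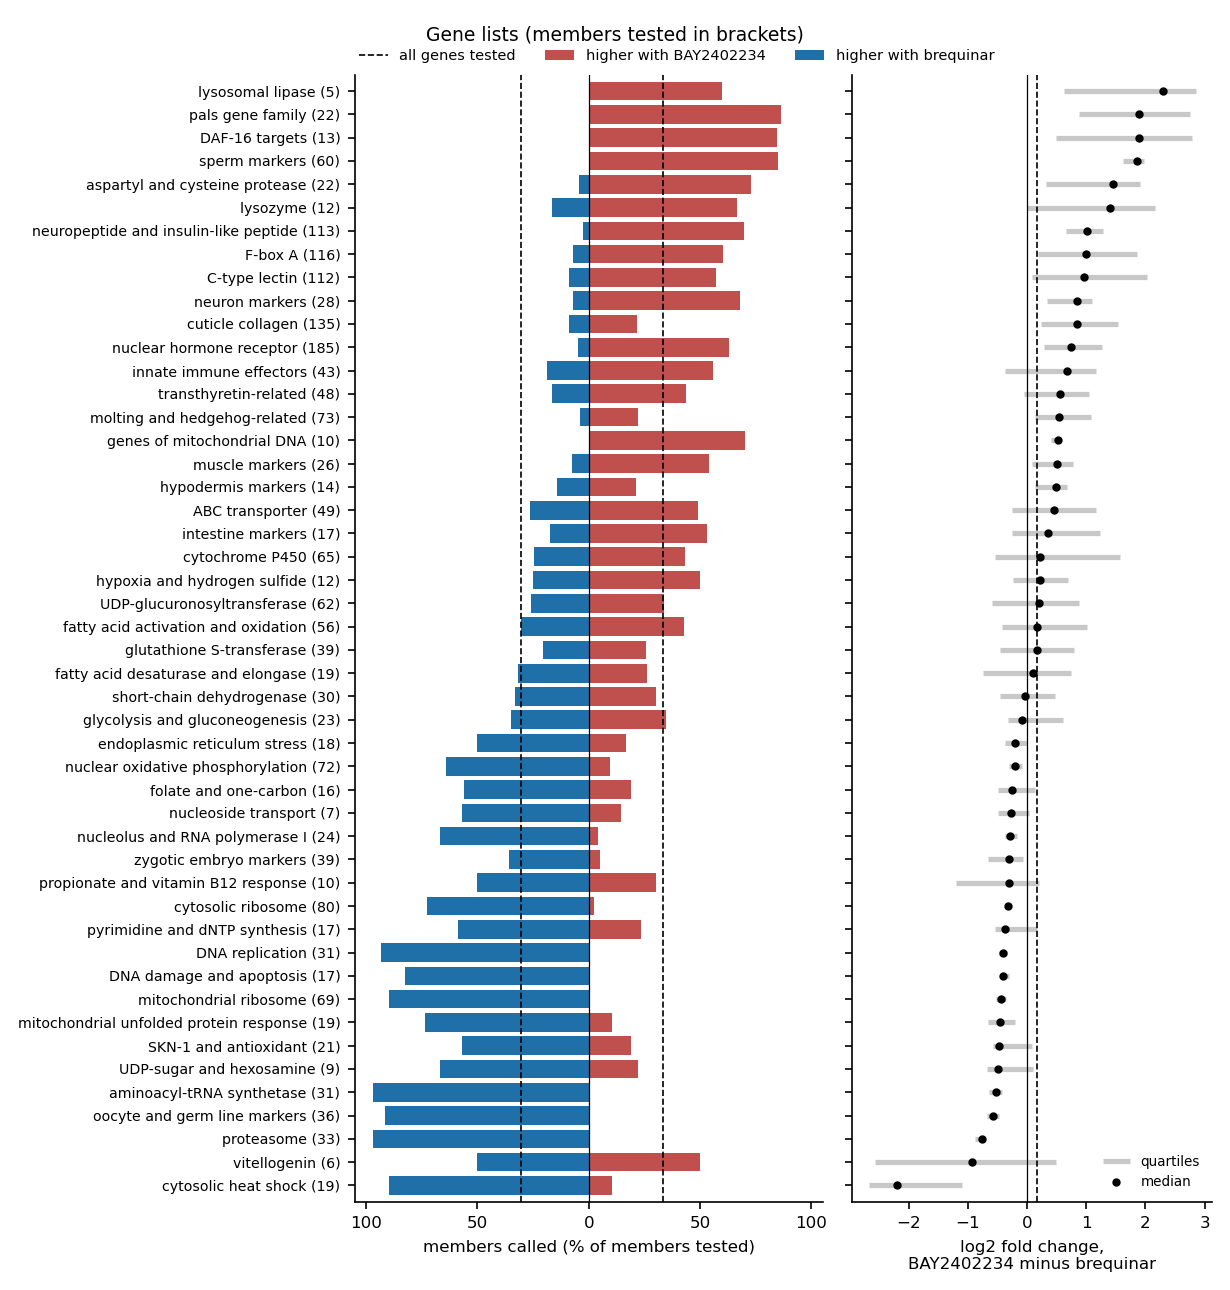
For 48 gene lists, the share of members tested that were called higher with BAY2402234 (red, right) or higher with brequinar (blue, left), and the median log2 fold change with its quartiles, with all genes tested as dashed lines (33.2%, 30.2% and 0.16). The lists run from lysosomal lipases and pals genes, with medians of 2.29 and 1.89, to cytosolic heat shock genes at -2.20.

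The proteasome was lower by smaller amounts, and stress response genes of the organelles were called lower more often than higher. Of 33 proteasome genes, 32 were lower with BAY2402234 and none higher, with a median of -0.76. rpn-9 was at 142, 154, 177 and 138 CPM against 268, 300.1, 270.2 and 271 CPM, log2 -0.86 (SE 0.09, adjusted p = 9.54e-08). The mitochondrial chaperone hsp-60 was at 125, 139, 191 and 110 CPM against 444, 458, 428 and 424 CPM, log2 -1.64 (SE 0.23, adjusted p = 4.54e-06), and hsp-6, the usual reporter of the mitochondrial unfolded protein response, differed by -0.73, at 344 ± 28.9 CPM against 570 ± 31.9 CPM. Over the 19 genes of that response 14 were lower and 2 higher (median -0.45, from -1.64 to 1.2). In the endoplasmic reticulum, hsp-4, the BiP chaperone, was at 231, 275, 312 and 269.8 CPM against 513, 599.9, 631 and 657 CPM, log2 -1.14 (SE 0.1, adjusted p = 1.24e-08), while the DMSO level was 424 ± 10.7 CPM, between the compounds. Of the 18 genes of that list 9 were lower and 3 higher (median -0.2, from -1.14 to 0.53).

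Genes of translation were lower in the same way. Of 31 aminoacyl-tRNA synthetases, 30 were lower with BAY2402234 and none higher (median -0.53). gars-1, for glycine, was at 92.5, 100.3, 118 and 94.3 CPM against 203, 217, 186 and 188 CPM, log2 -0.97 (SE 0.09, adjusted p = 2.41e-08). Of 69 mitochondrial ribosomal protein genes, 62 were lower and none higher (median -0.44), with mrpl-24 at -0.84. Of 80 cytosolic ribosomal protein genes, 58 were lower (median -0.33). That count depended on one library: without BAY2402234 replicate 1 it was 16, with both replicate 1 libraries left out 5, and by total counts 18. The 2 higher genes were rpl-11.2 (537, 459.5, 527 and 394 CPM against 344, 227, 266 and 283 CPM, log2 0.78) and rpl-25.1 (0.65), on the X chromosome. Nucleolar and RNA polymerase I genes gave 16 lower and 1 higher of 24, and 10 lower without both replicate 1 libraries.

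In the respiratory chain, which receives the electrons of DHODH, the nuclear and mitochondrial genes differed in direction. Of 72 nuclear oxidative phosphorylation genes 46 were lower with BAY2402234 and 7 higher (median -0.21), but 25 were lower without BAY2402234 replicate 1 and 18 by total counts. The complex III gene ucr-2.3 was at 77.3 ± 17.5 CPM against 157 ± 12.2 CPM (log2 -1.02), whereas its paralogue ucr-2.1 (0.72) and the complex II gene sdha-1 (0.52) were higher. Of 10 protein genes of mitochondrial DNA, 7 were higher and none lower (median 0.52). ND1 was at 133, 109, 93.4 and 128 CPM against 58.6, 84.8, 73.5 and 67.1 CPM, log2 0.71 (SE 0.14, adjusted p = 0.000198), and COX1 at 1697, 1364, 1229.8 and 1656 CPM against 872, 1195, 1042 and 1028 CPM (0.52). The cytochrome b gene CYTB was not called (0.09, 95% interval -0.14 to 0.31). Mitochondrial names were assigned by position.

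Germ line transcripts were lower with BAY2402234. Of 36 oocyte and germ line markers 33 were lower and none higher (median -0.58), and the list took 1.66, 1.65, 1.71 and 1.65% of counts with BAY2402234 and 2.31, 2.41, 2.22 and 2.21% with brequinar, with 2.04, 2.14, 2.06 and 2.02% in DMSO. The groups did not overlap: an exact two-sided permutation test gave p = 0.0286, the smallest possible with 4 against 4, or 0.0416 after adjustment over 48 lists. Most lists passed this test: 33 of the 48 had an adjusted p below 0.05, 21 of them higher and 12 lower with BAY2402234. This split depended on the scaling, since these shares are of total counts. By the same test on TMM-scaled library sizes, 4 of the higher lists no longer passed (adjusted p from 0.0761 to 0.103). These were cytochrome P450s, ABC transporters, genes of mitochondrial DNA and sperm markers. A further 6 lists passed, all lower with BAY2402234 (adjusted p = 0.0392). The P granule gene pgl-3 was at 157, 159, 201 and 154 CPM against 319, 333, 292 and 309.9 CPM, log2 -0.9 (SE 0.17, adjusted p = 9.36e-05). The oocyte maturation gene oma-2 (-0.72) and syp-2, of the synaptonemal complex (-0.75), were lower too. DNA replication genes, which the dividing germ line uses, were lower in 29 of 31 and higher in none (median -0.41), for example rfc-2 (-0.69). DNA damage and apoptosis genes were lower in 14 of 17, and in 7 without both replicate 1 libraries, among them the p53 homologue cep-1 (-0.48) and the recombinase rad-51 (68.8, 80.1, 87.1 and 81.1 CPM against 113, 116, 114 and 117 CPM, log2 -0.54).

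Sperm transcripts were higher with BAY2402234 in 51 of 60 and lower in none (median 1.86), but the count rested on one library. Their share of counts was 0.108, 0.0215, 0.0259 and 0.0226% with BAY2402234 and 0.0208, 0.0095, 0.0109 and 0.00624% with brequinar, against 0.0571, 0.0204, 0.0475 and 0.0301% in DMSO, and replicate 1 of each compound was its highest. Without BAY2402234 replicate 1 the count was 7, and without both replicate 1 libraries it was 30 with a median of 1.43. msp-79, of the major sperm proteins, was at 19.3, 3.72, 4.87 and 3.96 CPM against 2.94, 1.64, 1.87 and 0.823 CPM, while spe-9, a sperm surface gene needed for fertilisation, was at 1.63 ± 0.45 CPM against 0.471 ± 0.0314 CPM with no overlap, log2 1.78 (SE 0.3, adjusted p = 3.92e-05). The major sperm protein genes are near-identical copies. Relative to DMSO, 2 of the 60 were higher with BAY2402234 and 24 lower with brequinar.

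Of 39 markers of zygotic transcription in the embryo, 14 were lower with BAY2402234 (35.9%, beside 30.2% of all genes). A further 2 were higher (5.13%, beside 33.2%), and 8 were lower without BAY2402234 replicate 1. The early embryonic transcript vet-1 was at 6.1, 9.01, 7.21 and 6.45 CPM against 16.7, 16, 14.7 and 15.9 CPM, log2 -1.14 (SE 0.17, adjusted p = 9.02e-06), with 6.95 ± 1.39 CPM in DMSO. Relative to DMSO 11 of the 39 were higher with BAY2402234 and 17 with brequinar. Their summed share was 0.0241, 0.0294, 0.0258 and 0.0266% and 0.0253, 0.0231, 0.0273 and 0.0297%, with overlapping ranges.

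Muscle, intestine and neuron markers gave more higher than lower calls with BAY2402234. Of 26 muscle markers 14 were higher and 2 lower (median 0.51). The body wall myosin unc-54 was at 2394 ± 428 CPM against 1411 ± 151 CPM (log2 0.76), myo-3 at 135, 114, 108 and 121 CPM against 61, 52.9, 48.8 and 53 CPM (1.15), and the pharyngeal myosins myo-1 (1.5) and myo-2 (1.68) were higher. Relative to DMSO, 2 of the 26 were higher and 8 lower with BAY2402234, and 19 were lower with brequinar. The muscle share was 1.4, 1.14, 1.07 and 1.1% with BAY2402234 and 0.815, 0.755, 0.757 and 0.762% with brequinar.

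Of 17 intestine markers 9 were higher (52.9%) and 3 lower (17.6%), beside 33.2% and 30.2% of all genes. The gut esterase ges-1 (36 ± 9.18 CPM against 14.6 ± 1.22 CPM, log2 1.3), the intermediate filament ifb-2 (1.62) and the GATA factors elt-7 (1.4) and elt-2 (0.57) were higher, while the acid phosphatase pho-1 (-0.8) was lower and the intestinal actin act-5 was not called (-0.25). Neuronal markers were higher in 19 of 28 and lower in 2, and neuropeptide and insulin-like genes in 79 of 113 with 3 lower (median 1.02). By peptide class, 27 of 30 flp genes were higher. The insulin-like gene ins-7 was at 8.1, 4.7, 3.21 and 6.05 CPM against 0.465, 0.359, 0.542 and 0.617 CPM, log2 3.46 (SE 0.38, adjusted p = 1.5e-07), and nlp-12, made by a tail neuron, differed by 1.81. Hypodermal markers gave 3 higher and 2 lower of 14, and 0 higher without brequinar replicate 2.

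These tissue lists moved along with many of the gene families above: muscle, intestine and neuron markers with the lectins, proteases and receptors, and oocyte markers with the proteasome, chaperone, replication and translation genes. The lists are not all separate: asp-1 is a member of both the protease and the intestine list, so these move together in part by construction. The intestine share was 0.724, 0.541, 0.582 and 0.764% with BAY2402234 and 0.276, 0.234, 0.286 and 0.289% with brequinar. Much of that difference came from the single gene asp-1, at a mean of 4123 CPM with BAY2402234 and 1140 CPM with brequinar. With TMM-scaled library sizes the mean share of the whole intestine list was 0.599% and 0.278%. The neuron share overlapped, at 0.112, 0.111, 0.0935 and 0.116% and 0.0936, 0.101, 0.0941 and 0.0933%. The part of tissue proportions in the results of those families was not tested.

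**Figure D4:**
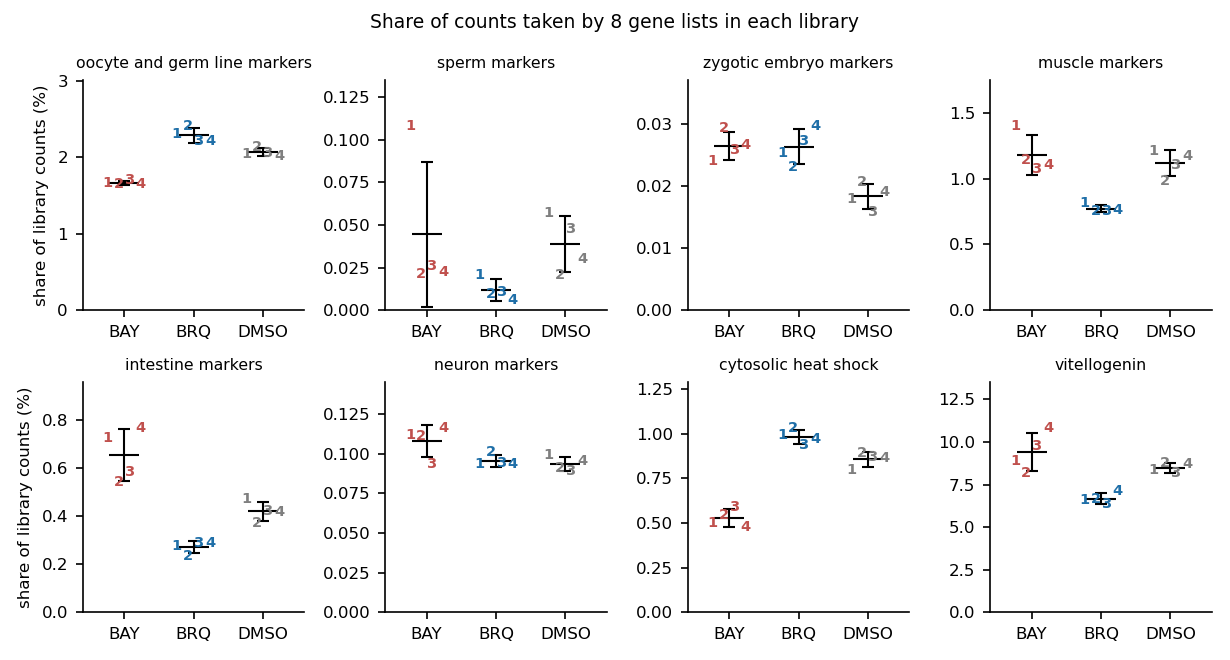
Share of each library's counts (%) taken by 8 gene lists for BAY2402234 (BAY), brequinar (BRQ) and DMSO, with each library shown by its replicate number and bars for the mean ± SD (n = 4). Oocyte markers are lowest and intestine markers highest with BAY2402234, and BAY2402234 replicate 1 stands alone for sperm markers at 0.108%. Much of the intestine difference is the single gene asp-1.

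Yolk protein genes, expressed in the adult intestine to feed oocytes, split within the family: 3 of 6 were lower with BAY2402234 and 3 higher. vit-1 was at 344, 272, 611 and 764 CPM against 3244, 3945, 3569 and 4105 CPM, log2 -2.9 (SE 0.29, adjusted p = 6.39e-08), with 4529 ± 471 CPM in DMSO. vit-3 was at 385, 710, 1424 and 576 CPM against 4676, 5502, 4777 and 5306 CPM (-2.71), and vit-4 at 522, 414, 1104 and 750.3 CPM against 2919, 3035, 2869.9 and 4031 CPM (-2.2). vit-2, the most abundant, was higher, 33753, 31273, 36836 and 38271 CPM against 20001, 21015, 19289.6 and 21209 CPM, log2 0.78 (SE 0.1, adjusted p = 6.55e-07). vit-5 (0.33) and vit-6 (0.55) were higher too, and the family's summed share was 8.9, 8.16, 9.76 and 10.8% against 6.57, 6.67, 6.34 and 7.13%. vit-3, vit-4 and vit-5 are close copies of each other, as are vit-1 and vit-2, so reads could pass between members of each set, yet within both sets members went in opposite directions. The vit-5 difference was small and its groups overlapped, and 2 members instead of 3 were higher without BAY2402234 replicate 3.

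Cuticle collagens gave 29 higher and 12 lower of 135, a count that moved with single libraries: 16 were higher without brequinar replicate 2, and as many as 66 with another library left out. col-43 was at 0.0911, 0.0896, 0.0487 and 0.089 CPM against 2.17, 1.9, 1.87 and 2.26 CPM, log2 -4.57 (SE 0.45, adjusted p = 4.77e-08), with 7 counts in all in the BAY2402234 libraries, and col-101 (-1.8) and col-95 (-2.14) were lower as well. Molting genes (16 higher and 3 lower of 73) were mostly not called. The transthyretin-related gene ttr-44 was at 111, 91.8, 95.3 and 112 CPM against 20.1, 15.8, 11.2 and 14.4 CPM, log2 2.74 (SE 0.18, adjusted p = 8.34e-10), in a family with 21 of 48 higher and 8 lower.

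Where the compounds did not differ by the test, the intervals varied. Of 5544 genes not called, 1769 had a 95% interval of the log2 fold change within 0.5 of 0 and 3642 within 1, so for those 3642 genes a 2-fold difference lies outside the interval. For the remaining uncalled genes the interval includes it. Of the called genes 3346 differed by less than 0.5.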

How the data were processed

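Whole-worm total RNA was sequenced on a BGISEQ-500. Per the submitters' processing notes, reads were checked with FastQC and aligned with STAR 2.7.3a to WBcel235, and DESeq2 1.40.2 was used. The authors deposited raw counts per gene (27782 identifiers), used here as deposited. The counting tool, strand setting and annotation release are not given in the sources used here, so reads of overlapping or near-identical genes may be assigned with uncertainty. Names matched 25676 identifiers, and coordinates are from Ensembl's annotation of the same build. 4 biological replicates per group are labelled, and replicate counts differed beyond sampling noise in all pairs (chi-square per degree of freedom at least 3.66).

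Counts were fitted with edgeR 4.0.16 (R 4.3.3; limma 3.58.1) on the 24 batch 1 libraries (6 groups, which share one estimate of spread): filterByExpr with a minimum count of 10, TMM scaling, robust quasi-likelihood F test, Benjamini-Hochberg adjustment over all genes, threshold 0.05. Levels are TMM-scaled counts per 1000000 (CPM), log2 fold changes are BAY2402234 minus brequinar unless stated, and SEs come from the fold change and the F statistic. CPM is not divided by gene length, so levels are compared between groups and not between genes. Gene lists (48, matched by symbol; uap-1, rrn-3, cdc-45 and opt-2 had no match) are described by counts and medians, and their shares of counts by exact permutation tests.

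The comparison, the lists and the rule for names were chosen with earlier results of these data known. Named genes were the 10 largest rises and falls among called genes with a symbol whose groups did not overlap (5 CPM or more as the mean of either compound), 2 each way with a sequence name, a panel of 19 stress and pyrimidine genes (18 tested, sod-3 filtered out), the 10 smallest p-values over 50 CPM, and 3 members of each list by p-value, 167 in all. Other list and subfamily members were named after their values were seen. Replicate numbers were not treated as pairs. Alternatives were other samples, scalings, filters, DESeq2 1.42.0, a replicate block and left-out libraries. Promoter motifs, planned at first, were not analysed here.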

Additional observations from a re-analysis of the deposited data

Results flagged for a closer look

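In 38 of 442 groups of 4 libraries examined (the named genes, the gene list shares and 6 measures of the libraries such as total counts, each for BAY2402234 and brequinar), the highest or lowest library lay farther from the rest than Dixon's test allows at 95%. Chance alone gives about 1 group in 20. 25 of these were high, 11 lay in BAY2402234 replicate 1 and 3 in brequinar replicate 1. Values are CPM for genes and percent of counts for lists. The cause was not tested for any of them.

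BAY2402234 replicate 1 stood apart for abt-2 (37.3, the others 33.3 to 33.8), asp-6 (4205, the others 3036 to 3169), C50F7.5 (90.7, the others 34.6 to 41.3) and msp-79 (19.3, the others 3.72 to 4.87). It also did so for rpl-25.1 (294, the others 278 to 279.5), ssp-35 (5.83, the others 0.717 to 1.34) and tyms-1 (70.7, the others 88.1 to 90.5).

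Higher than the rest were acs-2 in BAY2402234 replicate 2 (1011, the others 531 to 584), cyp-13A12 in brequinar replicate 3 (23.7, the others 1.59 to 5.27), dhs-23 in BAY2402234 replicate 4 (1.82, the others 0.717 to 0.828) and irg-5 in BAY2402234 replicate 4 (184, the others 86.2 to 102). The same held for pdi-1 in BAY2402234 replicate 3 (327, the others 289.5 to 296), pgl-3 in BAY2402234 replicate 3 (201, the others 154 to 159), phb-2 in BAY2402234 replicate 3 (164, the others 138 to 142) and rpn-9 in brequinar replicate 2 (300.1, the others 268 to 271). High values were also found for sqv-4 in BAY2402234 replicate 3 (182, the others 160 to 162), sqv-4 in brequinar replicate 2 (252, the others 233 to 236) and vit-4 in brequinar replicate 4 (4031, the others 2869.9 to 3035). Lower than the rest were asp-1 in brequinar replicate 2 (941, the others 1199 to 1214), asp-6 in brequinar replicate 2 (535, the others 750.3 to 793), clec-82 in brequinar replicate 2 (0.154, the others 0.246 to 0.258) and col-43 in BAY2402234 replicate 3 (0.0487, the others 0.089 to 0.0911). The same direction was seen for cyp-33C12 in brequinar replicate 3 (0.0493, the others 0.0513 to 0.0516), fat-3 in brequinar replicate 1 (56.9, the others 82.8 to 85.8), gale-1 in BAY2402234 replicate 4 (45.9, the others 49.7 to 50.4) and mlc-1 in BAY2402234 replicate 4 (442, the others 593 to 613). The brequinar libraries held 4 counts of cyp-33C12 in all and the BAY2402234 libraries 7 of col-43. The low values of these genes rest on single counts and are no sign of an unusual library. Low values were also found for ttr-41 in BAY2402234 replicate 4 (82.3, the nearest other 102) and ugt-31 in BAY2402234 replicate 4 (31.8, the others 51.9 to 55.9).

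Among the lists, in percent of counts, the highest library stood apart for cytosolic ribosome in brequinar replicate 1 (11.3, the others 10 to 10.2), lysozyme in BAY2402234 replicate 1 (0.275, the others 0.197 to 0.205), cuticle collagen in BAY2402234 replicate 1 (1.35, the others 0.857 to 0.923) and sperm markers in BAY2402234 replicate 1 (0.108, the others 0.0215 to 0.0259). High shares were also seen for oocyte and germ line markers in BAY2402234 replicate 3 (1.71, the others 1.65 to 1.66), muscle markers in brequinar replicate 1 (0.815, the others 0.755 to 0.762), neuron markers in brequinar replicate 2 (0.101, the others 0.0933 to 0.0941) and hypodermis markers in BAY2402234 replicate 1 (0.0955, the others 0.0677 to 0.0694). Low shares were those of folate and one-carbon in brequinar replicate 2 (0.299, the others 0.314 to 0.316) and cuticle collagen in brequinar replicate 2 (0.841, the others 0.982 to 1.01).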

How the results depend on the processing

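The number of called genes, 9598, ranged from 7350 to 9814 over all settings tried, and every gene called both there and in the main analysis kept its sign. Leaving out 1 library gave 7968 to 9781 called genes, 4273 to 5318 of them higher and 3375 to 4561 lower with BAY2402234. Leaving out both replicate 1 libraries, tried after seeing the data, gave 7350, with 4334 higher and 3016 lower. DESeq2's test gave 9569 of the same 15142 genes. The number of genes tested differed in other settings: the 8 libraries alone gave 8524 of 13887, no filter 9045 of 27050 and a stricter filter 7900 of 12037. Of the 9598 genes, 7574 were also called without BAY2402234 replicate 1, and 7110 without both replicate 1 libraries. Most named genes were chosen for a small p-value or a large difference in these same data, so their calls were likely to hold. Of 167 named genes, 161 kept their call in every alternative and none changed sign. elt-3 (log2 0.55, adjusted p = 0.0519 without brequinar replicate 2), ent-1, gst-4, umps-1 and upp-1 lost theirs in at least 1, and tyms-1 gained one in 6. With TMM-scaled library sizes 4 lists lost the call of their share and 6 gained one. The differences in share of 3 lists changed sign, to -0.0321 percentage points for fatty acid activation and oxidation, -0.0574 for cuticle collagen and -0.00266 for zygotic embryo markers. The cause was not tested. Same-numbered libraries of the compounds correlated at 0.53, 0.12, 0 and 0.33 in their deviations from the group means, and not every library correlated best with its own number, so the numbers were not taken as pairs. A replicate block gave 9814 called genes, 5164 higher and 4650 lower. How the calls depend on depth was not tested.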

Other observations

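Other gene groups are given here beside the 33.2% higher and 30.2% lower of all genes tested. Of 49 ABC transporters 24 were higher with BAY2402234 and 13 lower. Of 30 short-chain dehydrogenases 9 were higher and 10 lower, close to the shares of all genes, with a median of -0.03 that changed sign with the scaling (0.12 by total counts). Of 10 genes of propionate breakdown and the vitamin B12 response 3 were higher and 5 lower. Acyl-CoA synthetases, which activate fatty acids, were higher in 15 of 21 and lower in 3, while acyl-CoA dehydrogenases, which begin their oxidation, gave 5 higher and 6 lower of 13. These last counts were drawn up after the values were seen. Some of the higher calls, such as acs-6, acs-10, acs-18 and acdh-8, had overlapping groups and a high BAY2402234 replicate 1. For acs-10 that library was at 7.74 CPM and the other BAY2402234 libraries at 1.2 to 1.9 CPM. For acdh-8 it was at 8.38 CPM and the others at 1.21 to 2.18 CPM.

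By annotated kind of gene, 31.3% of 14328 protein-coding genes were lower with BAY2402234 and 33.2% higher. Of 578 pseudogenes 178 were higher and 71 lower, and of 44 lincRNAs 36.4% were higher and 6.82% lower.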
